A study of Rattus norvegicus with 196 samples.

Results

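Tsc22d2 and DEPP, 2 genes named together as stress-responsive, were followed through every library of a rat fluoxetine study. They were found by name in the study's supplementary list of transcripts that differed between fluoxetine and control rats, and each matched 1 identifier, so the members were 2 of the 29188 transcripts counted (Tsc22d2 is ENSRNOT00000015119 and DEPP is ENSRNOT00000018133). The list was selected on the fold changes and adjusted p of that contrast. All values of fluoxetine against control given here are therefore a description and carry no test. The tests concern levels between brain regions. The choice did not use the regional levels in control rats as such. A level in fluoxetine rats holds the change that the list was selected on. Tests among fluoxetine libraries are therefore not independent of the choice.

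RNA was sequenced from punches of 25 brain regions in 196 samples. FT samples (98) came from 2-month-old male Long-Evans rats given fluoxetine, a serotonin reuptake inhibitor, at 18 mg/kg in drinking water for 6 weeks, and Sham samples (98) came from rats of the same kind given water. Each sample was a pool of punches from 10 of the 40 animals of its treatment group, so a replicate is a pool and not an animal. Replicates carry the numbers 1, 3, 4 and 5, and FT and Sham samples of 1 number were processed side by side. Each group held 4 samples apart from FT mPoA and Sham Arc, which held 2.

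Tsc22d2 belongs to the TSC22 domain family, leucine-zipper proteins that respond to osmotic and hormonal signals. The longer members of the family bind the pseudokinase NRBP1 and the WNK kinases of cell volume control. DEPP, listed by RefSeq as Depp1, was first described as a decidual protein induced by progesterone. It is a target of the FoxO transcription factors, is induced by fasting and hypoxia, and is known in vascular endothelium. In bulk tissue, fewer cells of a type and less RNA per cell cannot be told apart.

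Sequence at the start of each gene is shown because FoxO factors bind short forkhead motifs. RefSeq windows of 300 bases (assembly GRCr8, 250 before the annotated start and 50 after) were searched on both strands for the forkhead letters GTAAATA, for another forkhead form spelled GTAAACA, for one spelled ATAAACA and for a further form spelled ATAAATA. The search also took in the glucocorticoid receptor core site TGTTCT, the cyclic AMP element TGACGTCA, the hypoxia letters ACGTG, the heat shock letters GAANNTTC and the TATA box letters TATAAA. The Depp1 window held GTAAATA 1 time, 194 bases before the start, and GAANNTTC 1 time, 107 bases before it, and the 2 matches did not overlap. Among all 33469 windows, 3.51% held GTAAATA and 8.59% held GAANNTTC. No other letters searched were in the Depp1 window, and none were in the Tsc22d2 window. The annotated Tsc22d2 start falls on the letters ATG, which may be a start codon, so the window may miss the promoter. Its lack of matches is therefore not set against the Depp1 matches. Capitals mark the motif in the Depp1 lines, at chr4:151583166-151583195 and chr4:151583253-151583282, and the bases from the annotated start onward in the Tsc22d2 line, at chr2:144797025-144797054, all on the plus strand.
Depp1 forkhead: caccctacggtGTAAATAtttcccaacctc
Depp1 heat shock letters: ctttcctctgaGAACCTTCtgaagcgctgc
Tsc22d2 start: ccagccttttccaccATGTCCAAGATGCCG

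Library totals on transcripts ran from 4586 to 50893913 reads with a median of 11921178. The Sham Nts library of replicate 3, with 4586 reads, and the CGC pair of replicate 1, whose FT library had 83.3% of its reads on 50 transcripts, were left out of levels, pair ratios and regional tests. In replicate 3 the 50 most counted transcripts took a median of 68.2% of reads, against 30.1% over the other replicates. Of 8 named region markers, 3 had their highest Sham mean in the labelled region, Adora2a in NAcC, and Th and Slc6a3 in VTA. Hcrt was highest in VMH at 219 CPM ahead of LH at 152, Htr1a in dorDG at 9.63 and not in raphe, and PENK in BLA ahead of the accumbens. Avp and Oxt were near 0 in 3 of the 4 Sham PVN libraries, so those libraries lacked the peptides that define the hypothalamic nucleus of that abbreviation. The Sham BLA libraries held Adora2a at 86.6 ± 36.6 CPM (SD, n = 4), against 4.79 ± 3.43 CPM (SD, n = 4) in CMA. Adora2a and PENK mark striatal and central amygdala neurons rather than the basolateral amygdala, so the label of the BLA libraries goes against these markers, and below BLA means the libraries labelled BLA. CPM is the read count scaled to library size with TMM factors.

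DEPP differed between regions in Sham rats, with its highest levels in the nucleus accumbens and the libraries labelled BLA. The fitted level was 2.77 log2 CPM in NAcSh, 2.68 in NAcC, 2.51 in BLA and 2.27 in BNST, and it was lowest at 0.02 in PVN. The place of BNST rested on 1 library at 16.5 CPM, and without replicate 1 its level was 1.15 log2 CPM, rank 12 of 25. NAcC then led at 2.55 log2 CPM, with BLA at 2.34 and NAcSh at 2.13. In the Sham libraries of replicate 4, BLA, raphe and Nts held more DEPP than either accumbens region. Over the 25 regions the quasi-likelihood F test in edgeR, with the replicate number as a block, gave an adjusted p of 7.4e-07 for DEPP. By the same test 75.2% of all 17008 transcripts differed between regions, so a regional difference as such is common here. The BLA level stands beside the Adora2a content of those libraries given above, whose part in it was not tested.

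The NAcSh Sham libraries of replicates 1, 3, 4 and 5 held DEPP at 19.4, 1.78, 3.84 and 9.62 CPM. The NAcC libraries held it at 9.73, 2.80, 3.40 and 15.0 CPM. In PVN the values were 1.89, 0.275, 1.26 and 1.05 CPM. Each replicate had more DEPP in both accumbens regions than in PVN, while the accumbens library of replicate 3 fell below the PVN library of replicate 1 in NAcSh. Highest minus lowest, the NAcSh level exceeded the PVN level by 2.75 ± 0.52 (SE) on the log2 scale, a pair picked for being the extremes.

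No neighbours in the Sham order of DEPP were set apart beyond their spread. The largest step between neighbours was 0.40 on the log2 scale, with SEs of 0.39 to 0.59 over the 24 steps. Sorting by level makes such steps small by construction, so no test is read from them. In the middle and lower part of the order, LS, PLC, LC, CMA and CGC lay from 1.90 down to 1.71 log2 CPM, and VMH, VTA, PAG, mPoA and dorDG from 0.68 down to 0.41.

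The FT libraries gave a second set of levels for DEPP, which hold the change that the list was selected on. The F test over regions gave an adjusted p of 1.1e-10 in edgeR, where 80.4% of 16553 transcripts passed. NAcC led at 4.07 log2 CPM, then BNST at 3.84 and NAcSh at 3.78, and PVN at 1.36 and InsularC at 1.29 came last. Without replicate 1 raphe led at 3.82 log2 CPM, followed by BLA at 3.56 and NAcC at 3.51, and BNST was at rank 8 with 3.03. Fitted Sham and FT levels had a Pearson r of 0.86 and a Spearman rho of 0.84 over the 25 regions. The Sham and FT points come from different libraries that share replicate numbers and processing.

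In FT the NAcC libraries of replicates 1, 3, 4 and 5 held DEPP at 28.8, 6.24, 14.8 and 25.9 CPM. The InsularC libraries held it at 1.23, 0, 6.32 and 8.03 CPM. Within each replicate the NAcC value was the larger, and the replicate 4 and 5 InsularC values exceeded the NAcC value of replicate 3.

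Tsc22d2 had a flatter profile in Sham rats, and whether it passed depended on the settings. Its F test gave an adjusted p of 0.102 in edgeR (unadjusted 0.0766), above the threshold of 0.1. Without the low-count filter the adjusted p was 0.0710, with all libraries kept it was 0.0242, and without replicate 1 it was 0.0132, while in DESeq2 it was 0.249. The levels ran from 5.98 log2 CPM in CGC and 5.80 in PLC to 4.86 in LC and 4.81 in Arc. Their whole range was 1.17 on the log2 scale, against 2.75 for DEPP.

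The Sham CGC libraries of replicates 3, 4 and 5 held Tsc22d2 at 14.8, 199 and 82.1 CPM. The Sham LC libraries of replicates 1, 3, 4 and 5 held it at 23.4, 9.71, 48.5 and 54.8 CPM. The CGC values were the larger within each shared replicate, yet the CGC library of replicate 3 was below 3 of the 4 LC libraries. Steps between neighbours in the Tsc22d2 order were at most 0.19 on the log2 scale with SEs of at least 0.33, again small by construction.

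In FT libraries Tsc22d2 levels differed between regions, with an adjusted p of 5.5e-08 for the F test in edgeR. These levels hold the change that the list was selected on, so the test is not independent of the choice. LC led at 6.93 log2 CPM, followed by Nts at 6.72, PLC at 6.71, MDT at 6.56 and raphe at 6.5. NAcC at 5.11 and MS at 5.08 came last, and LC exceeded MS by 1.85 ± 0.34 (SE) on the log2 scale, again a pair picked as the extremes. LC, lowest but 1 of the Sham order, was first in FT, and over the 25 regions fitted Sham and FT levels had a Pearson r of -0.04 and a Spearman rho of -0.08. The Sham order of Tsc22d2 did not repeat between Sham replicates either, where r over regions lay between -0.12 and 0.35 for the 6 pairs of replicate numbers. Between FT replicates r lay between 0.37 and 0.82 for the 6 pairs, so the FT order repeated in part. With no stable Sham order, no change of order between treatments is read from this. Without replicate 1, Nts led in FT at 6.91 log2 CPM with LC next at 6.85.

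The regional tests rest on comparing regions within a replicate number. Without the replicate block the adjusted p for FT was 1 for Tsc22d2 and 0.916 for DEPP in edgeR, and for Sham it was 1 and 0.0292. The spread between replicate numbers was wide for both genes, as the plot of every library shows.

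**Figure D1:**
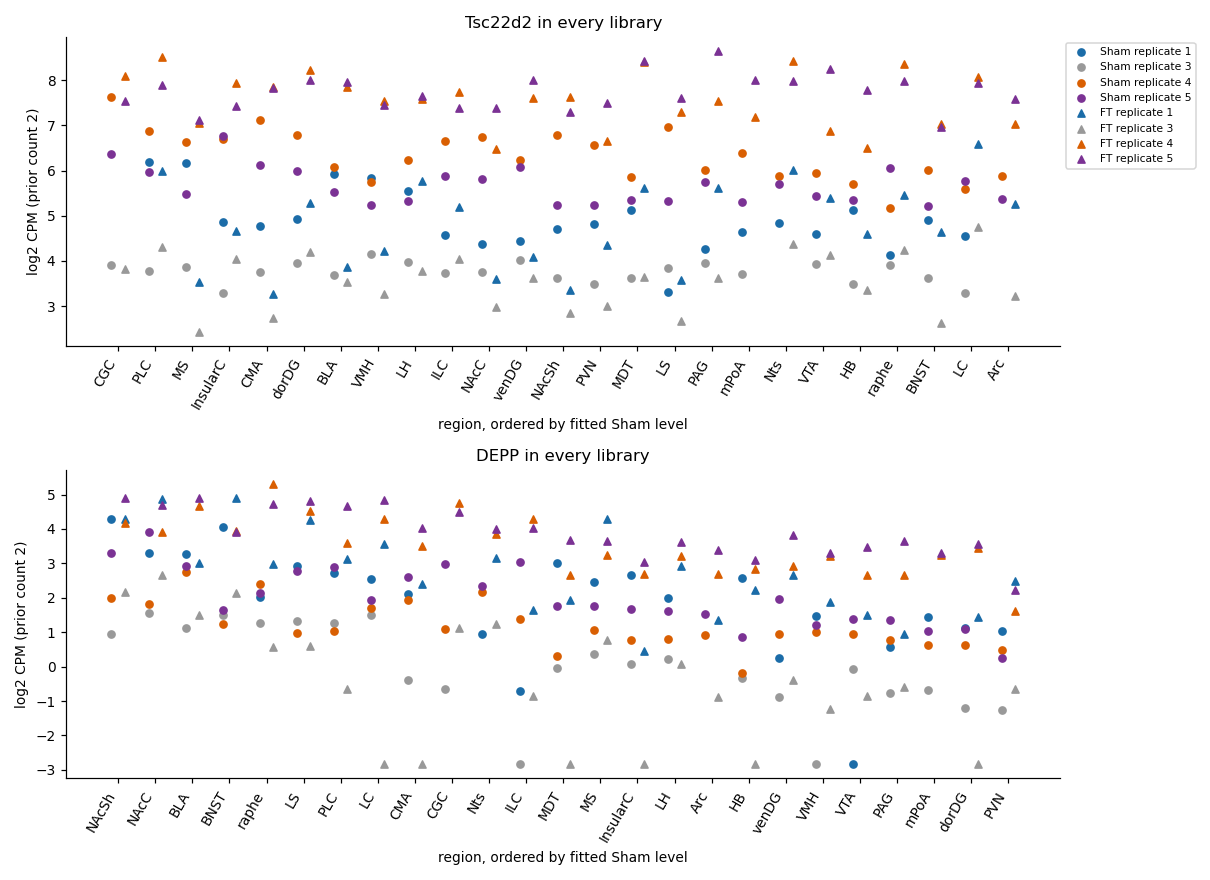
Level of Tsc22d2 (top) and DEPP (bottom) in every library, as log2 CPM with a prior count of 2, for 25 regions ordered by the fitted Sham level. Circles are Sham, triangles FT, and colours are replicate numbers. FT triangles of replicates 4 and 5 sit at the top in most regions, replicate 3 lies lowest for both genes in most regions, and the points at the bottom edge of the DEPP panel are libraries with 0 reads.

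**Figure D2:**
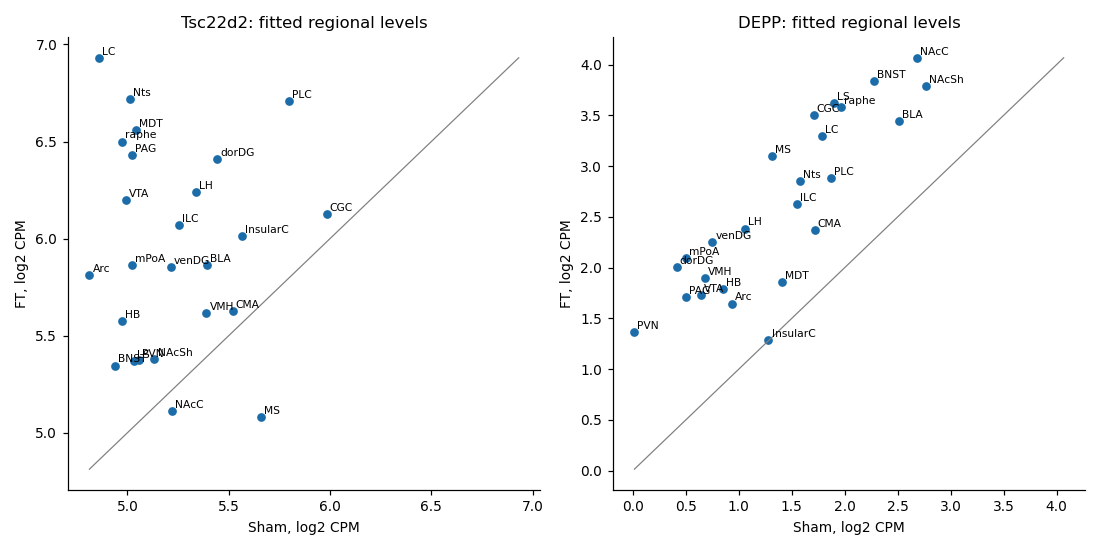
Fitted regional level in FT (vertical) against Sham (horizontal), both log2 CPM, 1 point a region, with the line of equal levels. DEPP regions keep a similar order in both treatments (r = 0.86) and lie on or above the line. Tsc22d2 levels show no relation (r = -0.04), with LC highest in FT at 6.93. They also show none between Sham replicates, while between FT replicates r lies from 0.37 to 0.82.

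The 10 pairs of related regions chosen were compared directly for both genes in each treatment, with Benjamini-Hochberg adjustment over all transcripts. In Sham, 0 of the 10 pairs passed for either gene in edgeR, and 0 had an unadjusted p under 0.05, where 5.65% of all transcripts and pairs passed. DEPP in BLA exceeded CMA by 0.79 on the log2 scale, with a 95% interval from -0.12 to 1.71. Core and shell of the accumbens differed by -0.09 for DEPP, with an interval from -1.002 to 0.83, and by 0.09 for Tsc22d2, with an interval from -0.58 to 0.75. These intervals still hold differences beyond the call threshold of 0.32 on the log2 scale, so at this depth and replication a difference was not detectable and is not shown to be absent.

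In FT, 1 of the 10 pairs passed for each gene, where 7.74% of all transcripts and pairs passed. That count is near the share, so nothing is read from it. The FT levels also hold the change that the list was selected on. DEPP was higher in CGC than in InsularC, by 2.21 ± 0.50 (SE) on the log2 scale (edgeR adjusted p 0.0124). The FT CGC libraries of replicates 3, 4 and 5 held 2.03, 26.8 and 22.5 CPM, against 0, 6.32 and 8.03 CPM in InsularC. CGC was higher in each of the 3 shared replicates, and its replicate 3 value lay among the InsularC values. The adjusted p was 0.266 without replicate 4 and 0.109 without replicate 5, so the call rests on both.

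Tsc22d2 was lower in the habenula than in the mediodorsal thalamus of FT rats, with a log2 difference of -0.99 ± 0.33 (SE, edgeR adjusted p 0.0209). The unadjusted p of that edgeR test was 0.00346. Such a p reaches that adjusted p only where many transcripts of the pair pass. The pooled 7.74% therefore understates how common a call is in this pair. The HB libraries of replicates 1, 3, 4 and 5 held 24.05, 10.1, 89.9 and 220 CPM, and the MDT libraries held 49.2, 12.3, 336 and 342 CPM. Within each replicate HB was the lower. Without replicate 4 the adjusted p was 0.164.

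Against this regional background, the fitted log2FC of FT against Sham was above 0 for both transcripts in nearly every region. These are the values by which the genes entered the list. The log2FC of DEPP was above 0 in each of the 25 regions, reached 2-fold in 23 of them and had its median at 1.79. That of Tsc22d2 was above 0 in 23 regions, reached 2-fold in 11 and had its median at 0.76. FT was higher in every pair of the region in 13 regions for DEPP and in 9 for Tsc22d2. For Tsc22d2, FT was higher in 10 of 22 pairs of replicate 1 and in 8 of 22 of replicate 3. It was higher in 24 of 25 pairs of replicate 4 and in 25 of 25 of replicate 5. Among the 11365 transcripts tested in all 25 regions, 4.13% had a positive log2FC in all of them and 12.7% in 23 or more. The median over regions exceeded that of DEPP for 2 of these transcripts and that of Tsc22d2 for 163.

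By edgeR each gene was called higher in FT in 5 of 25 regions, against 1.01% of all transcripts and regions. DESeq2 called Tsc22d2 in 7 regions and DEPP in 9, against 1.19%. The rule used this contrast, so nothing is read from these counts. Raphe, mPoA, Arc and Nts were on both edgeR lists, LC was the other region for Tsc22d2, and CGC the other for DEPP. The Nts fit held the Sham library with 4586 reads, and without replicate 3 edgeR called 0 of 12953 transcripts in either direction there (1674 had an unadjusted p under 0.05), both genes included. The mPoA and Arc fits rest on the pairs of replicates 4 and 5.

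The fold changes of the 2 genes were spread differently over regions. Tsc22d2 had its highest log2FC in LC at 2.08 ± 0.22 (SE), then Nts at 1.99, raphe at 1.76 and mPoA at 1.75, and its lowest in NAcC at -0.0012 and MS at -0.41 ± 0.61. DEPP had its highest in mPoA at 2.53 ± 0.42 (SE) and CGC at 2.52 ± 0.46, and its lowest in MDT at 0.87 and InsularC at 0.20 ± 0.89. These orders mix regions with different pairs, since mPoA and Arc have only replicates 4 and 5, where ratios were high in most regions. Over the pairs of replicates 4 and 5 alone, the mean log2 ratio of DEPP was highest in LS at 2.80 and raphe at 2.75, with mPoA at rank 8, and that of Tsc22d2 in MDT at 2.80 and raphe at 2.56, with mPoA at rank 11. DEPP had the larger log2FC of the 2 genes in 21 of 25 regions, and in the other 4 (InsularC, MDT, LC and Nts) the difference was within the SEs. It was also within the SEs in several of the 21. Among these were raphe, at 1.89 ± 0.45 (SE) for DEPP and 1.76 ± 0.37 for Tsc22d2, Arc and PAG. In the accumbens core the log2FC was 1.45 ± 0.33 (SE) for DEPP and -0.0012 ± 0.31 (SE) for Tsc22d2.

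**Figure D3:**
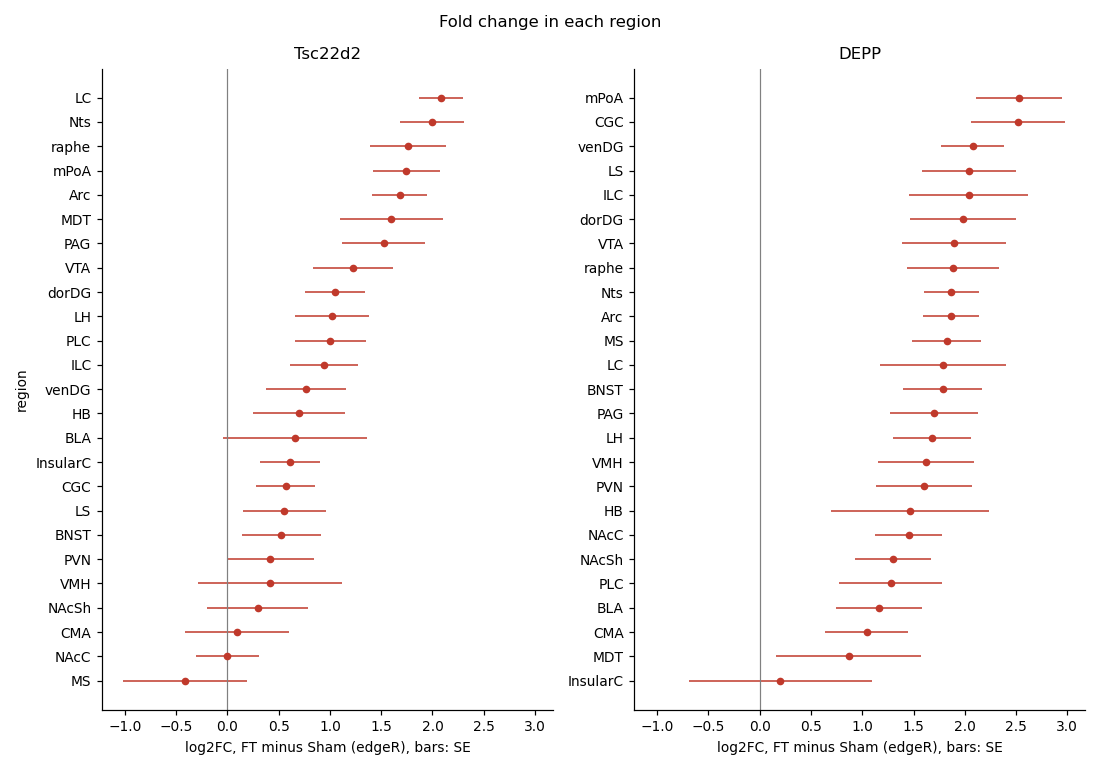
log2FC of FT against Sham in each of 25 regions from edgeR with the replicate block, with bars of 1 SE, for Tsc22d2 (left) and DEPP (right), each sorted by its own values. DEPP lies above 0 in 25 regions and Tsc22d2 in 23, with MS lowest for Tsc22d2 at -0.41.

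In the locus coeruleus the 4 FT libraries held Tsc22d2 at 95.8, 26.7, 271 and 247 CPM for replicates 1, 3, 4 and 5, beside the Sham values given above. FT was the higher in 4 of 4 pairs, and the groups overlapped through the FT library of replicate 3. The raphe Sham libraries held it at 17.3, 15.0, 35.8 and 66.7 CPM and the FT libraries at 43.8, 18.9, 328 and 253 CPM. There too FT was higher in each pair with overlapping groups. In the medial septum the Sham values were 71.7, 14.5, 99.7 and 44.8 CPM and the FT values 11.5, 5.26, 132 and 139 CPM. The 2 pairs of lower number had less Tsc22d2 in FT and the other 2 had more.

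For DEPP in raphe the Sham libraries held 3.93, 2.29, 5.11 and 4.27 CPM and the FT libraries 7.70, 1.35, 39.5 and 26.3 CPM. Only the replicate 3 pair, with 9 and 3 reads, was lower in FT. In NAcC, set beside the FT values above, FT exceeded Sham in 4 of 4 pairs. The mPoA Sham libraries held 2.59, 0.479, 1.41 and 1.89 CPM, and the FT libraries of replicates 4 and 5 held 9.24 and 9.72 CPM. That region was the only 1 of 25 in which the groups did not overlap, for DEPP and likewise for Tsc22d2, and its FT group has no library of replicates 1 and 3.

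The FT to Sham ratio of both genes differed in size between replicate numbers. For Tsc22d2, FT was higher in 24 of 25 pairs of replicate 4 (median log2 ratio 1.14) and in 25 of 25 of replicate 5 (median 2.17). In replicate 1 it was higher in 10 of 22 pairs with a median of -0.21, and in replicate 3 in 8 of 22 with a median of -0.18. The 1 exception in replicate 4 was NAcC, at -0.28. LC was positive in all 4, with 2.03 in replicate 1 and 1.45 in replicate 3, the highest of those replicates.

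DEPP followed the same division less sharply. FT was higher in 25 of 25 pairs of replicate 4 (median 2.20) and 25 of 25 of replicate 5 (median 1.98). In replicate 1 FT was higher in 18 of 22 pairs, with a median of 0.88, and in replicate 3 in 11 of 22, with a median of 0.01. The DEPP values of replicate 3 rest on a median of 3 reads in Sham and 2 in FT libraries, so a ratio of moderate size could not be seen there. The highest DEPP ratio of replicate 1, 4.34 in VTA, was taken against a Sham library with 0 reads and depends on the prior count.

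**Figure D4:**
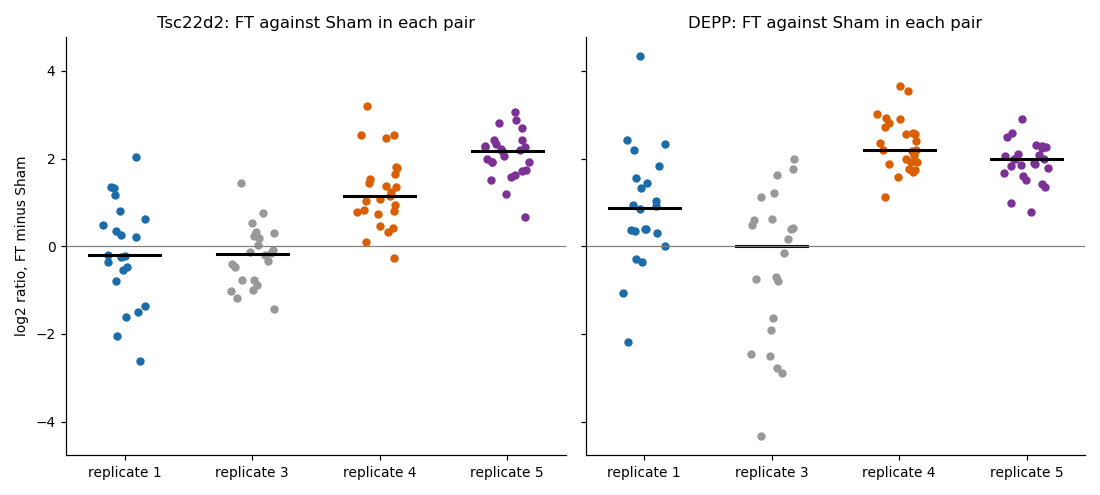
log2 ratio of FT to Sham (vertical) in each region's pair, by replicate number, for Tsc22d2 (left) and DEPP (right), with medians as black bars. Tsc22d2 medians are -0.21, -0.18, 1.14 and 2.17 for replicates 1, 3, 4 and 5, and DEPP medians are 0.88, 0.01, 2.20 and 1.98.

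The replicate numbers also set apart the levels themselves. The Tsc22d2 median over Sham regions was 28.3 CPM in replicate 1, 13.4 in replicate 3, 75.3 in replicate 4 and 45.9 in replicate 5. Over FT regions it was 25.3, 12.2, 195 and 220 CPM. Sham and FT medians were thus close in replicates 1 and 3, and FT lay well above Sham in replicates 4 and 5. For DEPP the Sham medians were 4.21, 0.83, 1.86 and 3.27 CPM and the FT medians 6.18, 0.51, 10.8 and 13.9 CPM.

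Library measures varied with replicate number and treatment too. The share of reads outside annotated features was higher in FT in 21 of 25 pairs of replicate 4 (median difference 4.97 percentage points) and in 7 of 25 pairs of replicate 5 (median -2.14). It was higher in 3 of 22 pairs of replicate 1 (median -3.75) and in 11 of 22 of replicate 3 (median -0.06). Its Sham medians were 25.6%, 39.2%, 41.1% and 46.9% in replicates 1, 3, 4 and 5, and its FT medians 21.9%, 37.9%, 47.5% and 43.1%. FT libraries had fewer reads on transcripts in 17 of 25 pairs of replicate 4 and 19 of 25 of replicate 5. Over the pairs of a replicate number, the FT to Sham difference in the share outside features had an r with the ratio of 0.60 for Tsc22d2 and 0.53 for DEPP in replicate 5, and between -0.35 and 0.30 in the other replicates. The difference in the share of the 50 most counted transcripts had an r with the DEPP ratio of -0.47, -0.22, -0.40 and -0.47 in replicates 1, 3, 4 and 5, and between -0.08 and 0.41 with that of Tsc22d2. The difference in read totals had an r with the DEPP ratio of 0.52 and 0.46 in replicates 1 and 3 and of -0.12 and -0.09 in replicates 4 and 5. These describe 22 pairs in replicates 1 and 3 and 25 in the others, pairs that may share animals, and whether the measures set the ratios was not tested.

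Both genes were higher in FT together in 24 of 25 pairs of replicate 4 and 25 of 25 of replicate 5, as the division by replicate number above already fixes. In replicate 1 this held for 9 of 22 pairs and in replicate 3 for 1 of 22. Within a replicate number the 2 ratios had a Pearson r of 0.20 in replicate 1, -0.53 in replicate 3, 0.01 in replicate 4 and 0.51 in replicate 5. The regions of a replicate number may share animals and processing, which the labels do not say. The replicate 3 value rests on DEPP libraries with a few reads or 0. Pairs with a large ratio of one gene were thus not regularly those with a large ratio of the other.

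**Figure D5:**
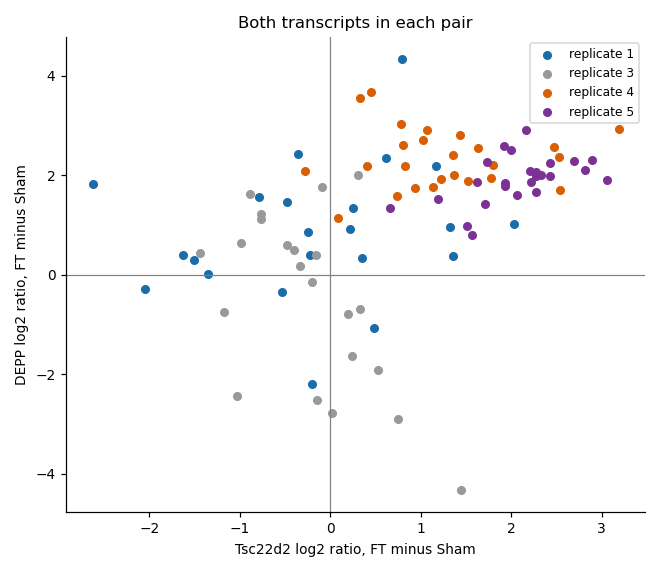
log2 ratio of FT to Sham for DEPP (vertical) against Tsc22d2 (horizontal), 1 point for each of 94 pairs, coloured by replicate number. All pairs of replicate 5 and 24 of 25 of replicate 4 lie above 0 on both axes, while pairs of replicates 1 and 3 spread around 0 for Tsc22d2.

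The genes whose Sham profile over the 25 regions was most like that of DEPP, among 1842 named transcripts, were PENK (r = 0.70), which encodes proenkephalin, and Adora2a (r = 0.70), an adenosine receptor of striatal neurons. Slc6a6, the taurine transporter, followed at 0.66, then Bcr at 0.64 and RGD1311648 at 0.63. PENK itself was highest in the libraries labelled BLA at 1646 CPM, whose label these genes put in doubt, and Adora2a in NAcC at 132 CPM, so the likeness rests in part on those libraries. For Tsc22d2 the closest were the adaptor Crk (0.89), the nuclear import receptor Kpna1 (0.88), Tmem65 (0.87), Clvs1 (0.86) and the RNA polymerase III subunit Polr3f (0.86). The profiles share libraries and depth. They are plain means without the replicate block, and in Arc, CGC and Nts libraries of some replicate numbers were absent or left out. By plain mean CPM in Sham, Arc was at rank 7 for Tsc22d2, against rank 25 in the blocked fit. How far the r values reflect the missing libraries was not tested. Tsc22d2 and DEPP had an r of 0.03 with each other.

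Over the 94 pair ratios, Tsc22d2 was most like Ssr3 (r = 0.95), a translocon-associated protein, the cytoskeletal linker Vcl (0.94), Paip1 (0.94), Uxs1 (0.94) and Fam173b (0.93). DEPP was most like the deubiquitinase Otub1 (0.75), Wdr83 (0.72), the proteasome subunit Psma7 (0.67), Rqcd1 (0.67) and Dcaf8 (0.66). The members had an r of 0.41 with each other, against a median of -0.02 over all candidates for Tsc22d2 and 0.12 for DEPP. All r over the 94 pairs mix replicate numbers whose ratios differed in level, so they in part restate that division. Within replicates 1, 3, 4 and 5 the members had an r of 0.20, -0.53, 0.01 and 0.51 with each other. All candidates come from the study's list for this contrast, and the pairs of 1 replicate number may share animals.

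Few related genes had a name in that list, so the pathways around the members are covered in part. Of 17 genes of WNK signalling and osmotic stress 1 was named, Slc6a6, with a median log2FC of -0.53 over regions and a positive value in 0 of 25, called lower by edgeR in 2 regions, where 0.913% of all transcripts and regions were called lower. The study chose these genes on this contrast, so nothing is read from their counts. Of 22 FoxO factors and targets 3 were named. Txnip, an inhibitor of thioredoxin, had a median of -0.48 and was called lower in 4 regions, the catalase gene Cat had -0.40 and was called lower in 1, and the mitophagy receptor Bnip3 had 0.07 and was called in 0. DESeq2 called Bnip3 higher in 2 regions.

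Of 27 glucocorticoid receptors and targets 4 were named. The mineralocorticoid receptor Nr3c2 had a median log2FC of -1.0 and was called lower in 2 regions, and Arrdc3 had -1.30 and was called lower in 4. The cell cycle inhibitor Cdkn1a had 0.54 and the metallothionein Mt1a 0.41, each called in 0 regions by edgeR and in 3 and 4 by DESeq2. Of 26 heat shock, endoplasmic reticulum, oxidative and hypoxic stress genes 1 was named, Hspb1, with 0.37. Of 13 immediate early genes 1 was named, Fos, with 0.78 and called higher in 3 regions, beside the 1.01% of transcripts and regions called higher. In the same list, 0 of the 3 other TSC22 family genes had a name there.

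The vascular cell type in which DEPP is known could not be followed, since 0 of 16 endothelial markers had a name in the list. Markers of other cell types went both ways. The astrocyte gene Gja1 had a median log2FC of -0.33, and of the oligodendrocyte genes Ugt8 had -0.35, Opalin -0.32 and Sox10 0.73. Of the microglial genes Cx3cr1 had -0.62 and C1qa 0.37, of the neuronal genes Syp had 0.58, Slc17a6 -0.08 and Gad2 -0.45, and of the choroid plexus genes Ttr had -0.88 and Kcnj13 -0.75. Gad2, which marks inhibitory neurons, was positive in 1 of 25 regions, and Syp, of synaptic vesicles, and Sox10 in 24 each. The part of cell composition in the ratios of Tsc22d2 and DEPP was not tested.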

How the data were processed

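The authors aligned 76 bp reads to rn5 with STAR and deposited raw HTSeq counts on 29188 Ensembl transcripts, with no normalization. Reads shared between transcripts went to an ambiguous class (median 5.52% per sample), and the strand setting of the counting is not given in the sources used here. Other transcripts of the same genes were not identified. Gene names came from the study's supplementary list, which names 1845 transcripts. The members and lists were chosen with earlier results of these data known, and named genes were the 5 most alike in Sham profile and in pair ratio and the matched members of the lists, of which 1 marker is not reported here.

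Counts were analysed with edgeR 4.0.16 in R 4.3.3 (TMM, filterByExpr at 10 counts per sample and 15 in total, quasi-likelihood tests), checked on simulated data. Each region was fitted alone for FT against Sham, and all regions together within Sham and within FT. Replicate numbers were used as blocks because the study processed FT and Sham of a number in parallel; deviations of same-numbered samples had a median r of 0.67 over regions, from -0.02 in Arc, and 23 of 25 regions had every pair over 0.1. The Nts library with 4586 reads stayed in the Nts fit of FT against Sham. Called means an adjusted p of at most 0.1 and a change of at least 1.25-fold. The log2 CPM scale used a prior count of 2. Replicates are pools and their number was a block. The p-values therefore measure the spread left after the level shared by each replicate number was taken out, and not the whole spread between pools. Alternatives were DESeq2 1.42.0, no block, median-ratio size factors, no filter, an adjusted p of 0.05, all libraries, and each replicate left out. Figures used matplotlib 3.10.9.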

Additional observations from a re-analysis of the deposited data

Results flagged for a closer look

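The Sham BNST library of replicate 1 stood apart for DEPP, at 16.5 CPM where the other Sham BNST libraries held between 2.22 and 3.003 CPM. The FT BNST library of the same replicate was also the highest of its group, at 29.8 CPM. This was 1 library flagged among 136 groups of 4 values examined, where about 1 group in 20, or 6.8, would be flagged by chance. Without replicate 1 the F test for DEPP over Sham regions gave an adjusted p of 1.5e-08 in edgeR. The fitted BNST level for DEPP in Sham was then 1.15 log2 CPM, against 2.27 with all replicates.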

How the results depend on the processing

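The positive median log2FC of both genes and the regional difference of DEPP in Sham kept their direction and side of the threshold under each alternative run, and the call counts did not. Regions called higher in FT by edgeR numbered 5 for each gene. For Tsc22d2 this became 0 with no replicate block and 11 with no low-count filter, and 0 to 4 when a replicate was left out. For DEPP it became 9 in DESeq2, 0 with no replicate block, 20 with no low-count filter, 3 at an adjusted p of 0.05, and 1 to 10 when a replicate was left out. The median log2FC ran from 0.27 without replicate 5 to 1.21 without replicate 1 for Tsc22d2, and was 1.31 with no replicate block. For DEPP it ran from 1.37 to 1.87. Regions with a positive log2FC numbered 15 to 25 for Tsc22d2 and 22 to 25 for DEPP, and mPoA and Arc could not be fitted without replicate 4 or 5.

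The edgeR adjusted p of the F test for Tsc22d2 in Sham was 0.0710 with no low-count filter, 0.0242 with all libraries and 0.0132 to 0.298 when a replicate was left out. In FT, without the replicate block it was 1 for Tsc22d2 and 0.916 for DEPP. Region pairs called in FT fell from 1 to 0 for each gene without the block, and leaving out a replicate gave 0 to 1 for Tsc22d2 and 0 to 2 for DEPP. In Sham it gave 0 to 1 for Tsc22d2, the pair being LS and MS without replicate 4. The cause was not tested. Low counts limit DEPP in replicate 3.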

Other observations

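In the CGC pair of replicate 1, which entered only the runs with all libraries kept, the Sham library held 4034 reads of Tsc22d2 (80.4 CPM) and 703 of DEPP (14.0 CPM). The FT library held 57 reads of Tsc22d2 (30.5 CPM) and 1 of DEPP (0.536 CPM). With that pair kept, the log2FC of DEPP in CGC was 1.27. The Sham Nts library of replicate 3 held 0 reads of either transcript among 4586.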
